A study of Mus musculus with 62 samples.

Results

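Gene expression in the suprachiasmatic nucleus (SCN) was compared with that in the nucleus accumbens (NAc) of C57BL/6J mice. Members were chosen by the region in the labels: all 19 SCN and all 26 NAc libraries were used, 45 of the 62 libraries of the series. Each library came from a tissue punch of 1 mouse, frozen after collection at Zeitgeber Time (ZT) 6, in the light phase. Of the mice, 19 gave a library of both regions and 7 gave a NAc library alone. The mice had been through circadian rhythm disruption (CRD), in which the light/dark cycle was repeatedly reversed, or through a matched control paradigm, and were euthanized about 4 weeks after it ended. The sources differ on the age at CRD, since the labels name adolescent and adult CRD and the methods of the study adolescent CRD alone. Region and mouse number are what the labels hold on each library. They give neither CRD nor sex for any mouse, so both regions pool mice with CRD and controls, and neither factor was tested. A punch holds every cell type of the cut tissue and some of its neighbors. In such bulk tissue, fewer cells of a type and less RNA per cell cannot be told apart.

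The SCN is a small paired nucleus of the hypothalamus above the optic chiasm and acts as the central circadian clock. Its neurons are mostly GABAergic, carry peptides such as vasoactive intestinal peptide (VIP) and vasopressin (AVP), and keep time by a loop in which CLOCK and BMAL1 activate the Per and Cry genes, whose proteins repress their own activators. The NAc is the ventral part of the striatum and a center of reward. Most of its neurons are GABAergic projection neurons that receive dopamine and carry either the D1 receptor with dynorphin or the D2 receptor with enkephalin.

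The authors deposited raw gene counts in a table for the SCN and another for the NAc and prefrontal cortex (PFC), each with its own set of genes. Region and table therefore cannot be told apart. The tables shared 11133 genes, 914 genes had a row in the SCN table alone and 436 in the other table alone. Without mitochondrial genes and 3 ribosomal RNA-like genes, 11109 genes were compared. On these genes the SCN libraries held 6566651 to 23910639 counts (median 9004133) and the NAc libraries 9849115 to 28126774 (median 18083849). The ribosomal RNA-like genes took 8.96% to 19.3% of all counts in the SCN and 1.58% to 13.3% in the NAc, and mitochondrial genes took 22.6% to 54.9% and 43.4% to 73.5%. Depth and these shares move with region, and their part in the differences was not tested. Levels below are CPM, counts set to a common total over the compared genes after joint scaling by the trimmed mean of M-values (TMM). They are given as the lowest, the median and the highest of the 19 SCN and 26 NAc libraries. Differences are log2 fold changes of SCN over NAc ± SE from edgeR's quasi-likelihood test, with p-values adjusted by Benjamini-Hochberg over all 11109 genes. A gene was called where this adjusted p was under 0.05 and the regions differed at least 1.2-fold.

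Between the regions, 7063 genes were called, 63.6% of those tested. The SCN was higher in 3615 of them (32.5% of genes tested) and lower in 3448 (31%). Scaling by total counts alone moved the share of called genes that were higher in the SCN from 51.2% to 64.3%, and upper-quartile factors moved it to 62.3%, with median differences of all genes of 0.160 and 0.137. The median log2 difference of all genes tested was 0.012, and 77.4% of the called genes differed by less than 2-fold. At least 4-fold differences were called in 341 genes (3.07%), 107 higher in the SCN (0.963%) and 234 lower (2.11%). With so many genes called, those that differed at least 4-fold and in which no SCN library overlapped any NAc library were taken apart. Both held for 293 genes (2.64% of those tested), and more of them were lower in the SCN (208 genes, 1.87%) than higher (85 genes, 0.765%). At any fold, the ranges of the regions did not overlap in 1460 genes (13.1%), of which 621 (5.59%) were higher in the SCN and 839 (7.55%) lower. The mice carried numbers of J1021 or below (lower range) or of J1140 or above (upper range). Within the lower range 6809 genes were called and 393 were 4-fold apart without overlap, and within the upper range the counts were 6637 and 273. Each range holds fewer libraries than the whole, which makes separate ranges easier to meet. SCN J1199 and SCN J1140, described below, are both in the upper range. These counts therefore do not compare the 2 sets of mice.

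**Figure D1:**
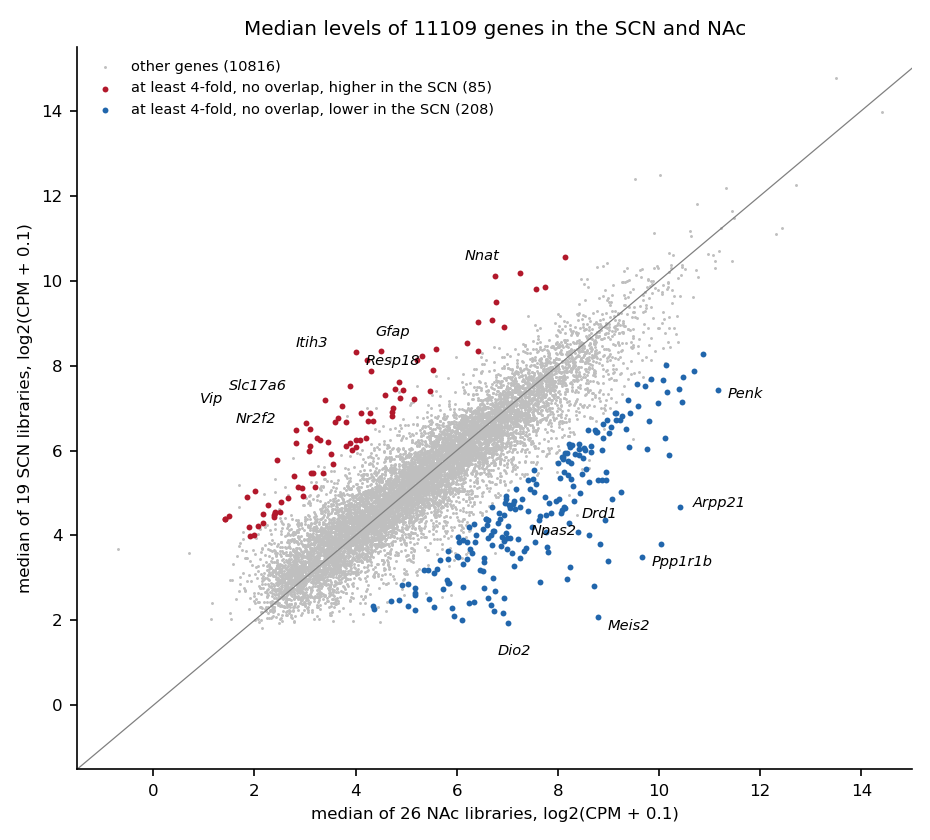
Median level of each of the 11109 genes compared, in the NAc (horizontal axis) and the SCN (vertical axis), both as log2(CPM + 0.1), with the line of equal levels. Red points are the 85 genes at least 4-fold higher in the SCN without overlap, blue points the 208 genes at least 4-fold lower, and the blue points reach farther from the line.

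The defining markers of each region were present in every library of that region, and 2 SCN libraries stood apart from the rest. Six6 (ENSMUSG00000021099; GRCm38 chromosome 12, 72939892 to 72944899), a transcription factor of the developing and adult SCN, has a row in the SCN table alone, as does Avp (ENSMUSG00000037727; chromosome 2, 130580620 to 130582554). Six6 had 7.39, 49 and 87.1 CPM in the SCN (lowest, median and highest), and Avp had 49.4, 250 and 402 CPM. No fold can be given for either. Vip (ENSMUSG00000019772; chromosome 10, 5639218 to 5647617) was measured in both regions and was at 10.9, 112 and 286 CPM in the SCN and at 0.34, 3.21 and 15.2 CPM in the NAc. It was 26.4-fold higher in the SCN (4.72 ± 0.342, adjusted p = 3.4e-17) and higher in 18 of the 19 mice with both regions. The ranges overlapped through 1 library, SCN J1199, which had the lowest Vip of the SCN.

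The NAc markers differed the other way. Drd1 (ENSMUSG00000021478; chromosome 13, 54051183 to 54055705), the D1 dopamine receptor, was at 7.59, 19.6 and 102 CPM in the SCN and at 153, 297 and 525 CPM in the NAc. Its level was 11.5-fold higher in the NAc (-3.53 ± 0.239, adjusted p = 3.27e-18). Ppp1r1b (ENSMUSG00000061718; chromosome 11, 98348404 to 98357796) encodes DARPP-32, the phosphatase inhibitor that integrates dopamine signals in striatal neurons. It was at 6.1, 11.1 and 289 CPM in the SCN and at 504, 807 and 1268 CPM in the NAc, a 24.7-fold difference (-4.62 ± 0.427, adjusted p = 1.18e-13). Neither gene overlapped between the regions, and both were lower in the SCN of all 19 mice with both regions. In each, the SCN libraries nearest the NAc were J1199 and J1140.

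**Figure D2:**
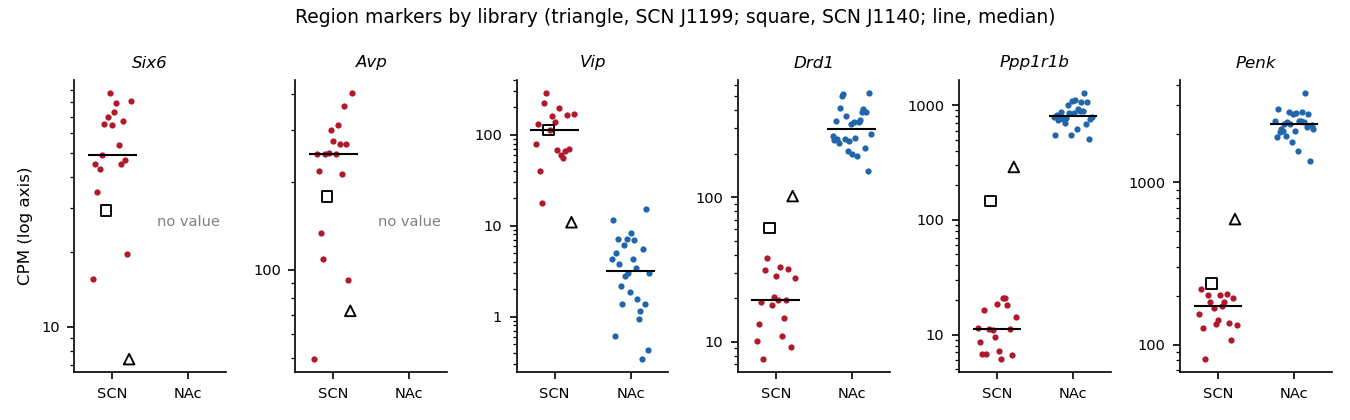
Level of 6 region markers in each library, as CPM on log axes with an own scale per gene. Each point is 1 library, red for the SCN (n = 19) and blue for the NAc (n = 26), the line is the median, and open symbols mark SCN J1199 (triangle) and SCN J1140 (square), which lie between the other SCN libraries and the NAc for Drd1 and Ppp1r1b. Six6 and Avp have no value in the NAc.

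SCN J1199 and SCN J1140 bear on the size of the NAc-enriched differences. Over the 208 genes at least 4-fold lower in the SCN without overlap, the median level was 39.4% of the NAc median in SCN J1199 and 24.6% in SCN J1140, against 12.3% to 18.2% in the other 17 SCN libraries. SCN J1199 was the SCN library nearest the NAc in 182 of the 208. It was also the lowest of 19 for Six6 (7.39 CPM), Lhx1 (3.5 CPM), Nms (2.24 CPM) and Vipr2 (3.21 CPM), and it held the highest sum of 15 vascular and meningeal genes (2292 CPM, median 667 CPM). SCN J1140 had 29.4 CPM of Six6, the fourth lowest. The NAc library of mouse J1199 had the lowest Drd1 (153 CPM) and Ppp1r1b (504 CPM) of the NAc and the highest Vip (15.2 CPM) and Slc17a7 (856 CPM). Whether these libraries hold mixed tissue or were exchanged was not tested, and the labels cannot settle it. Without SCN J1199 and SCN J1140, 7148 genes were called and 342 were at least 4-fold apart without overlap. All 293 were kept, and the 49 gained were lower in the SCN in 43 and higher in 6. Leaving libraries out can hardly make separate ranges overlap. SCN J1199 and SCN J1140 also lay nearest the NAc over the 208 genes, so differences there tend to grow without them. That all 293 were kept is therefore not a test of how stable they are. Without these libraries Ppp1r1b differed by -6.10 in place of -4.62, so differences that moved most are given below with and without them.

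**Figure D3:**
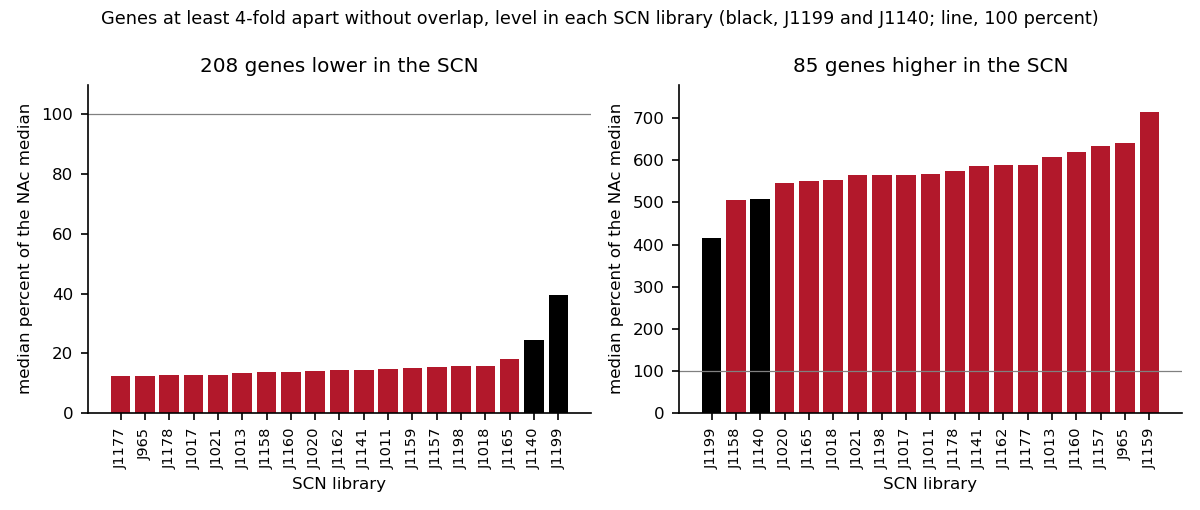
For each SCN library (bars, ordered by height), the median over genes of its level as a percent of the NAc median. The left panel shows the 208 genes at least 4-fold lower in the SCN without overlap, where J1199 (39.4%) and J1140 (24.6%, both black) are the highest bars, and the right panel the 85 genes at least 4-fold higher, where J1199 is the lowest at 416%. The gray line marks 100%.

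The genes of striatal projection neurons were lower in the SCN throughout. Of 33 genes listed, 23 were tested, and all 23 were called lower in the SCN, against 31% of all genes. Their median difference was -3.07, or -3.40 without the 2 SCN libraries, against 0.012 for all genes. Of the 23, 18 were at least 4-fold apart without overlap, against 1.87% of all genes.

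Arpp21 (ENSMUSG00000032503), a cAMP-regulated phosphoprotein, was at 18.9, 25.2 and 341 CPM in the SCN and at 785, 1362 and 2776 CPM in the NAc (-5.01 ± 0.354, adjusted p = 1.35e-17). That was a 32.3-fold difference, and 59.8-fold without SCN J1199 and SCN J1140 (-5.90). The phosphodiesterase gene Pde10a, which breaks down cyclic nucleotides in striatal neurons, was at 30.6, 59 and 466 CPM in the SCN and at 852, 1179 and 1899 CPM in the NAc (-3.90 ± 0.244). For Gng7, a G-protein subunit that couples D1 and adenosine receptors to adenylyl cyclase, the difference was -3.76 ± 0.213, and for Adcy5, that cyclase, -2.62 ± 0.146. Rgs9, whose striatal form shortens dopamine receptor signals, and Kcnip2, a potassium channel partner, differed by -3.02 ± 0.175 and -3.09 ± 0.147. All of these were lower in the SCN of each of the 19 mice and did not overlap. A further 8 striatal genes have a row only for the NAc and PFC. Among them, Adora2a, the adenosine receptor of D2 neurons, had a median of 207 CPM in the NAc (105 to 305), and Drd2 had 73.6 CPM (42.3 to 118). Scn4b, a sodium channel subunit, led all such genes with 391 CPM (268 to 655).

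Of the opioid peptide precursors, Penk and Pdyn were tested and were lower in the SCN, while Pnoc and Pomc have a row in the SCN table alone. Penk, the precursor of enkephalin, was at 81.3, 173 and 594 CPM in the SCN and at 1353, 2291 and 3549 CPM in the NAc, a 12.2-fold difference (-3.61 ± 0.157, adjusted p = 2.81e-25). Pdyn, the precursor of dynorphin, was at 3.67, 9.39 and 62.6 CPM in the SCN and at 189, 302 and 379 CPM in the NAc (-4.18 ± 0.27; 18.1-fold). Neither overlapped. Of the 9 tested genes for dopamine, opioid and cannabinoid receptors and peptides, 8 were lower in the SCN, against 31% of all genes, and 1 was higher, with a median of -1.26. The mu opioid receptor gene Oprm1 (-1.12 ± 0.11) and the kappa receptor gene Oprk1 (-1.26 ± 0.142) were lower in the SCN. Oprl1, the receptor of nociceptin, was the exception with 77.9, 120 and 152 CPM in the SCN and 30, 42.6 and 52 CPM in the NAc (1.48 ± 0.0739, adjusted p = 4.57e-23), and its ranges did not overlap. Cnr1, the CB1 cannabinoid receptor, differed by -0.43 ± 0.13 with overlapping ranges, and it was not called within the upper range of mouse numbers (-0.35, adjusted p = 0.0682).

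Of 16 telencephalic and striatal factors tested, 11 were lower in the SCN, against 31% of all genes, 3 were higher, against 32.5%, and 2 were not called (median -1.35). Meis2, a homeobox factor of striatal neurons, was at 1.74, 4.14 and 133 CPM in the SCN and at 326, 441 and 531 CPM in the NAc (-4.94 ± 0.435; -6.40 without the 2 SCN libraries). Rarb, a retinoic acid receptor of the striatum, differed by -4.06 ± 0.264, and Bcl11b (Ctip2), which is required for striatal neuron maturation, by -3.68 ± 0.265. None of these overlapped. Those higher in the SCN included Dlx1, a factor of GABAergic precursors (2.55 ± 0.189), and Ikzf2 (0.46 ± 0.112). Ikzf2 was not called within the lower range of mouse numbers (0.27, adjusted p = 0.229).

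All 5 tested hypothalamic factors were higher in the SCN, against 32.5% of all genes, with a median of 2.17. Zic2, a zinc finger factor, was at 9.28, 54.3 and 83 CPM in the SCN and at 2.07, 5.32 and 8.4 CPM in the NAc (3.38 ± 0.168, adjusted p = 3.23e-23). Its family member Zic1 was at 50.4, 282 and 462 CPM in the SCN and at 15.2, 25.7 and 59 CPM in the NAc (3.15 ± 0.191), with ranges that overlapped slightly. Onecut2 differed by 2.17 ± 0.159, and all 3 were higher in each of the 19 mice. A further 5 of the 22 factors listed have a row in the SCN table alone, 1 (Lhx6) has a row only for the NAc and PFC, and 11 were not analysed here. Of 13 tested steroid and related nuclear receptors, 6 were higher in the SCN and 6 lower, against 32.5% and 31% of all genes. Nr2f1 was higher by 1.35. Its relative Nr2f2 (COUP-TFII) was at 53.1, 100 and 187 CPM in the SCN and at 5.08, 8.06 and 14.7 CPM in the NAc (3.63 ± 0.13, adjusted p = 2.37e-28). Esr1, the estrogen receptor alpha of hypothalamic neurons, was at 13.7, 21.8 and 92.9 CPM in the SCN and at 0.632, 2.73 and 6.3 CPM in the NAc (3.25 ± 0.227). Neither overlapped. The glucocorticoid receptor gene Nr3c1 (-0.42 ± 0.0592), the mineralocorticoid receptor gene Nr3c2 (-1.53 ± 0.0905) and the retinoid receptor gene Rxrg (-2.61) were lower in the SCN.

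Most SCN peptides and receptors have levels in the SCN alone. Of 13 listed, 3 were tested and all 3 were higher in the SCN, 8 have a row in the SCN table alone and 2 were not analysed here. Besides Vip, the 3 were Adcyap1r1, the PACAP receptor, through which retinal input reaches the SCN, at 267, 360 and 425 CPM in the SCN and 131, 163 and 228 CPM in the NAc (1.10 ± 0.0545, adjusted p = 2.78e-23), and Gpr176, an orphan receptor of the SCN (1.26 ± 0.0764). Both were without overlap. In the SCN alone, Prokr2, the prokineticin receptor, had a median of 62.8 CPM (9.17 to 157), Prok2, its ligand and an output signal of the SCN, 36.7 CPM (2.32 to 52.9), Vipr2, the VIP receptor, 32 CPM (3.21 to 66.9), Nms 21.7 CPM (2.24 to 32.9) and Grp, gastrin-releasing peptide, 8.87 CPM (1.58 to 18.5). Libraries with the lowest values of these genes were SCN J1199 for Vipr2 and Nms and SCN J1018 for Prok2, Prokr2 and Grp.

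Of 8 further genes of SCN neurons that were tested, 6 were higher in the SCN and 2 lower, against 32.5% and 31% of all genes (median 1.34). Zfhx3, a transcription factor that sets circadian period, was at 71.6, 148 and 516 CPM in the SCN and at 12.7, 35.6 and 64.1 CPM in the NAc (2.41 ± 0.181), without overlap. Syt10, a synaptotagmin of SCN neurons, was at 19.6, 140 and 217 CPM in the SCN and at 15.1, 34.1 and 70.8 CPM in the NAc (1.81 ± 0.203), with overlap. Rasl11b, a small GTPase, differed by 1.35 ± 0.171. The 2 genes lower in the SCN were Dgkb, a diacylglycerol kinase (-3.02 ± 0.143), and Lypd1 (-1.15 ± 0.143). In the SCN table alone, Lhx1, the LIM homeobox factor that couples SCN neurons, had a median of 18.2 CPM (3.5 to 50.8), and Rgs16, a brake on G-protein signals with a daily rhythm in the SCN, had 106 CPM (16.2 to 263).

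The peptides of other hypothalamic neurons differed less clearly. Of 5 tested, Adcyap1 (PACAP) was at 14.6, 36.3 and 82.6 CPM in the SCN and at 0.0977, 3.15 and 23 CPM in the NAc (2.55 ± 0.379, adjusted p = 5.27e-08). Sst, somatostatin, was higher in the SCN by 0.64 ± 0.237, but was not called within the upper range of mouse numbers (0.39, adjusted p = 0.266). Cck (-1.15 ± 0.325) and Nts, neurotensin (-0.99 ± 0.33), were lower, and neither was called within the lower range of mouse numbers (adjusted p = 0.119 and 0.237). None of these ranges was separate. Cartpt was not called. Of the other listed peptides and binding proteins, Crh, Npy and Crhbp have a row only for the NAc and PFC, and 5 have a row in the SCN table alone. Among the latter, Trh, thyrotropin-releasing hormone, had a median of 187 CPM (15 to 330), Oxt, oxytocin, 37.7 CPM (7.6 to 132), and Gal, galanin, 21.5 CPM (5.43 to 165). Their spread over SCN libraries was wide.

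Clock genes were compared at the same hour of the day in both regions. With 1 hour sampled, a difference in level cannot be told apart from one in the phase or amplitude of a rhythm. Of 19 activators and repressors tested, 9 were higher in the SCN, 4 lower and 6 not called, against 32.5%, 31% and the rest of all genes, and their median was 0.25. Among the repressors, Per2 was at 19.8, 54.4 and 139 CPM in the SCN and at 15.6, 25.5 and 39.7 CPM in the NAc, 2.32-fold higher (1.22 ± 0.16, adjusted p = 3.02e-09). It was higher in the SCN of 18 of 19 mice, and 5 SCN libraries lay within the NAc range. Per1 was at 38.7, 72.8 and 142 CPM in the SCN and at 49.9, 74.7 and 104 CPM in the NAc (0.12 ± 0.113, adjusted p = 0.328), and Per3 at 18.3, 29.3 and 45 CPM and at 18.5, 27.1 and 33.5 CPM (0.11 ± 0.0793, adjusted p = 0.199). Neither was called. Per1 was called with scaling by total counts alone (0.27, adjusted p = 0.0268).

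The cryptochromes moved apart. Cry1 was at 40.7, 61.6 and 85.4 CPM in the SCN and at 35.8, 46.6 and 83.2 CPM in the NAc (0.33 ± 0.0896, adjusted p = 0.00103), but it was not called within the lower range of mouse numbers (0.23, adjusted p = 0.205). Cry2 was at 80.9, 101 and 140 CPM in the SCN and at 122, 139 and 162 CPM in the NAc (-0.46 ± 0.0514, adjusted p = 3.26e-11), lower in the SCN of all 19 mice.

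The activators showed the one clock difference of over 4-fold. Npas2, a partner of BMAL1 that can stand in for CLOCK in the forebrain, was at 8.23, 15 and 42 CPM in the SCN and at 111, 148 and 172 CPM in the NAc, an 8.57-fold difference (-3.10 ± 0.116, adjusted p = 1.34e-27). No SCN library came near the NAc range, and the highest was SCN J1199. The value without SCN J1199 and SCN J1140 was -3.22. Clock was at 104, 141 and 172 CPM in the SCN and at 122, 171 and 210 CPM in the NAc (-0.26 ± 0.0553, adjusted p = 4.32e-05), and Arntl, which encodes BMAL1, at 30.1, 38 and 44.5 CPM and at 33.5, 44.5 and 51.6 CPM (-0.23 ± 0.0465, adjusted p = 2.02e-05). Both fell short of the fold of a call, and the value of Clock turned to 0.13 with an offset for exon length.

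Of 4 tested nuclear receptors of the clock, 3 were higher in the SCN and Nr1d2 was not called. Rora, which activates Arntl, was at 97.5, 282 and 501 CPM in the SCN and at 64.7, 95.2 and 127 CPM in the NAc (1.63 ± 0.124, adjusted p = 1.72e-16). Rorb, its neural relative, was at 70.6, 181 and 395 CPM in the SCN and at 64.3, 86.3 and 119 CPM in the NAc (1.23 ± 0.12). Nr1d1 (REV-ERB alpha), the repressor of Arntl, was at 63.3, 92.7 and 182 CPM and at 37.5, 78 and 99.5 CPM (0.48 ± 0.115, adjusted p = 0.000204). All 3 overlapped between the regions. The output factors of the PAR bZIP family were split. Dbp was higher in the SCN by 0.30 ± 0.0822, with 108, 176 and 217 CPM against 99.3, 131 and 221 CPM. Tef was at 201, 240 and 284 CPM in the SCN and at 293, 390 and 515 CPM in the NAc (-0.70 ± 0.0577, adjusted p = 2.82e-15), without overlap, and Hlf differed by -0.48 ± 0.0866. The direction of Dbp held with an exon length offset but not its call (0.16, adjusted p = 0.0803).

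**Figure D4:**
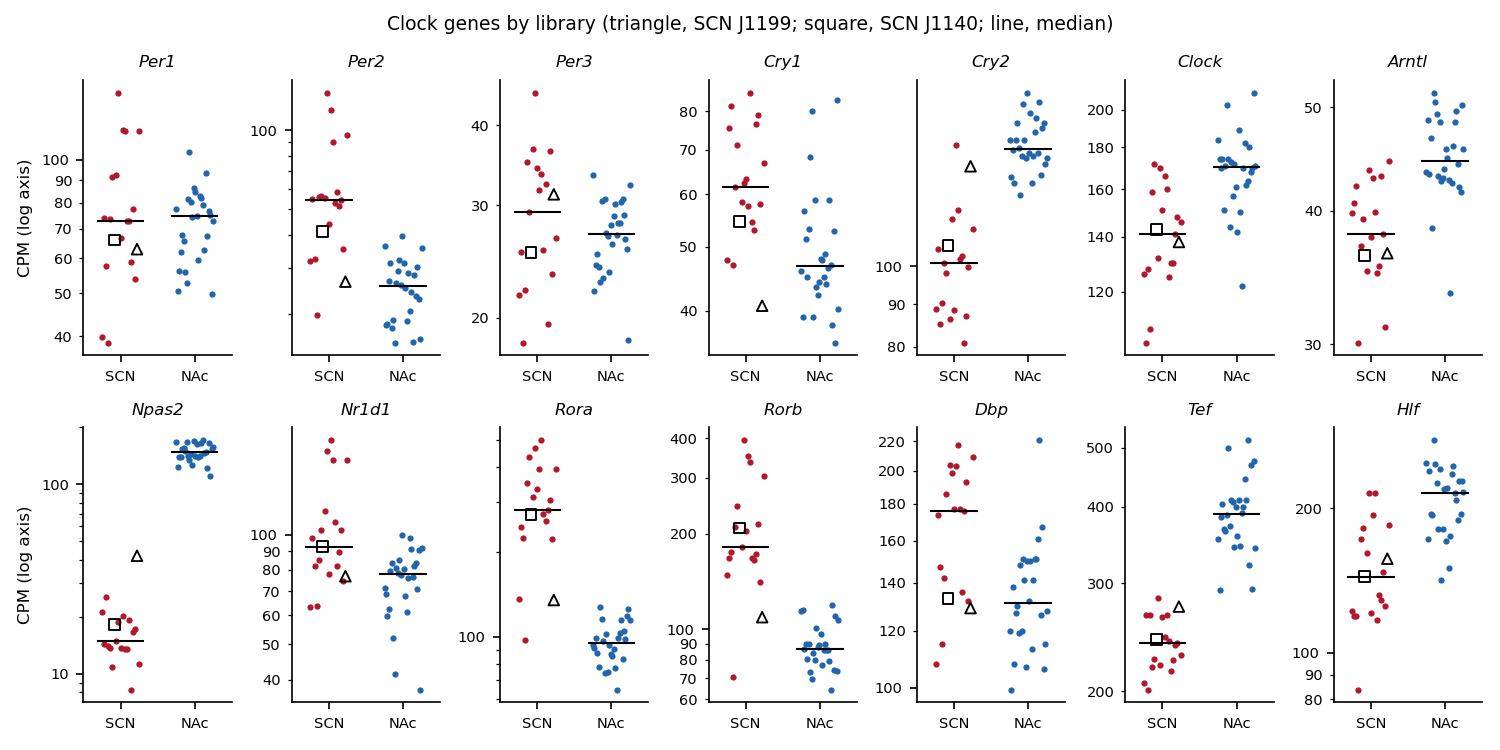
Level of 14 clock genes in each library, as CPM on log axes with an own scale per gene. Points are libraries of the SCN (red, n = 19) and the NAc (blue, n = 26), lines are medians, and open symbols mark SCN J1199 (triangle) and SCN J1140 (square). Npas2 and Tef are the genes without overlap, and Per2, Rora and Rorb are higher in most SCN libraries.

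Of the 12 tested kinases, phosphatases and ubiquitin ligases that act on clock proteins, 2 were higher in the SCN and 6 lower, together a share near the 63.6% called over all genes. Csnk1d, a kinase of the PER proteins, was at 89, 99.1 and 122 CPM in the SCN and at 54.4, 67.2 and 82.8 CPM in the NAc (0.58 ± 0.0436, adjusted p = 1.22e-16), without overlap. Its relative Csnk1e was at 47.5, 67.5 and 96.8 CPM and at 42.1, 62.1 and 81.6 CPM (0.12 ± 0.0759, adjusted p = 0.147) and was not called. Fbxl21, a ligase subunit for cryptochromes, was at 10.6, 34.7 and 47.5 CPM in the SCN and at 7.68, 12.1 and 25.3 CPM in the NAc (1.36 ± 0.128). Usp2, a deubiquitinase with a daily rhythm (-1.57 ± 0.114), and Ppp1cb, a phosphatase subunit (-0.62 ± 0.104), were lower in the SCN.

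CLOCK and BMAL1 bind the E-box, and CREB binds the cAMP response element, motifs through which some clock genes are regulated. Windows of 250 bases before the start of transcription came from RefSeq (GRCm38.p6) and were found by symbol for 8534 of the 11109 genes. They were searched on both strands for the E-box CACGTG and for TGACG, a stretch of the cAMP response element. The E-box was in 10.4% of the 8534 genes, in 5 of the 17 clock activators and repressors with a window, in 3 of 64 genes at least 4-fold higher in the SCN without overlap (4.69%) and in 20 of 145 genes at least 4-fold lower (13.8%). TGACG was in 32.2% of all genes, in 5 of the 17 clock genes, and in 18.8% and 20.7% of the 2 groups. Windows are shown for SCN peptides and for clock genes with an E-box that differed between the regions in unlike ways, and for Ano3, which has both motifs and was among the genes lowest in the SCN. Per1, Tef and Ano3 have 2 listed starts each, and the window shown was chosen for holding the most motifs. Letters run from 5′ to 3′ on the strand of the gene, and capitals mark the matches.
Avp (chr2:130582589-130582838, minus strand; SCN table alone): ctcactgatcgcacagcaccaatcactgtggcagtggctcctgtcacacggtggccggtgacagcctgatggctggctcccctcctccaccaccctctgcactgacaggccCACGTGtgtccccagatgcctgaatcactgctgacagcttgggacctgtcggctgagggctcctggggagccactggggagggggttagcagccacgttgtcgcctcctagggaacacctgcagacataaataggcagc
Vip (chr10:5638968-5639217, plus strand; higher in the SCN): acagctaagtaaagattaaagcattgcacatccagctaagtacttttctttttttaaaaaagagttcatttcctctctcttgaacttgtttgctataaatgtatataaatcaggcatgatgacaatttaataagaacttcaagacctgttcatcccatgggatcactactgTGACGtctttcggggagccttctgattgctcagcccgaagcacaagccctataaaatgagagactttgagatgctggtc
Per1 (chr11:69098699-69098948, plus strand; not called): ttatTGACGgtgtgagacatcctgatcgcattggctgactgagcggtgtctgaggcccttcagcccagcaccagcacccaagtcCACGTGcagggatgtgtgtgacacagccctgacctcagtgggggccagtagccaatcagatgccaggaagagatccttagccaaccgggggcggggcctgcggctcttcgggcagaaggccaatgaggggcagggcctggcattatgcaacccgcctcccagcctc
Cry1 (chr10:85185055-85185304, minus strand; higher in the SCN): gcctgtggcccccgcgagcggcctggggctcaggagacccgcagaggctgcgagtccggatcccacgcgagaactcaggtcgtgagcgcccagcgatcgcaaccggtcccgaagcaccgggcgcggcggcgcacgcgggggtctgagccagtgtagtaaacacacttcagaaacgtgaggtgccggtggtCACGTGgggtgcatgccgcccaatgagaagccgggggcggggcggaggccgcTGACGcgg
Bhlhe41 (chr6:145865421-145865670, minus strand; higher in the SCN): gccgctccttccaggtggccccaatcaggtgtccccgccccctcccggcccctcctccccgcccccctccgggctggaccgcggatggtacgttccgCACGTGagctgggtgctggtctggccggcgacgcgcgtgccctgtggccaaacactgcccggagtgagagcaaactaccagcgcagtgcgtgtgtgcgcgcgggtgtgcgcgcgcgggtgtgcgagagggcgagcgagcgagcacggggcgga
Tef (chr15:81802423-81802672, plus strand; lower in the SCN): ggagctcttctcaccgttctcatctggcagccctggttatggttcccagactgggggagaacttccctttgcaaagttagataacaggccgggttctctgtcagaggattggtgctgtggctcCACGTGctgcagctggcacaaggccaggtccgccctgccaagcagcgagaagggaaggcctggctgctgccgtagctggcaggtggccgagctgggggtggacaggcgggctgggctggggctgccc
Ano3 (chr2:110950245-110950494, minus strand; lower in the SCN): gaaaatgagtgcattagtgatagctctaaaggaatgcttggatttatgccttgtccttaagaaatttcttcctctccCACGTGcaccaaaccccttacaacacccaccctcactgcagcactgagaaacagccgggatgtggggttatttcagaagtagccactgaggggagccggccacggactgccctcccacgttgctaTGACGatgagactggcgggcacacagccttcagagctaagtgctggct

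Of the genes shown that were tested, Bhlhe41, a repressor that binds E-boxes itself, was at 69.5, 90.9 and 134 CPM in the SCN and at 50.7, 69.8 and 84.2 CPM in the NAc (0.51 ± 0.0725, adjusted p = 2.06e-08). Ano3, an anoctamin membrane protein of striatal neurons, was at 3.77, 6.87 and 186 CPM in the SCN and at 214, 422 and 810 CPM in the NAc (-4.37 ± 0.424; -5.76 without the 2 SCN libraries). A match in a window is a description of its letters, and E-boxes stood before genes of either direction, among them Cry1 and Bhlhe41 higher in the SCN and Tef and Ano3 lower.

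Of 13 tested immediate early genes, which neuronal activity induces, 4 were higher in the SCN, a share near the 32.5% of all genes, and 7 were lower, against 31% (median -0.55). Fos was at 5.1, 16.2 and 31.4 CPM in the SCN and at 1.07, 6.76 and 25.9 CPM in the NAc (1.14 ± 0.21, adjusted p = 4.31e-06), so 18 of the SCN libraries lay within the NAc range although Fos was higher in the SCN of 17 of 19 mice. Jun (0.61 ± 0.0955) and Btg2 (0.69 ± 0.131) were also higher. Egr1, a zinc finger factor induced by synaptic activity, was at 8.45, 14.5 and 53.4 CPM in the SCN and at 66.4, 123 and 191 CPM in the NAc (-2.75 ± 0.185, adjusted p = 2.42e-18). Arc, which regulates receptor trafficking at synapses, was at 3.94, 10.8 and 22.5 CPM and at 32.6, 56.6 and 109 CPM (-2.35 ± 0.162). Homer1, a scaffold of glutamate receptors, was at 32.6, 45.1 and 149 CPM and at 309, 498 and 933 CPM (-3.29 ± 0.161). These 3 did not overlap between the regions.

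Genes of cAMP and G-protein signaling were lower in the SCN in 18 of 27 tested and higher in 7, against 31% and 32.5% of all genes. Besides the striatal genes above, Pde7b, a cAMP phosphodiesterase, differed by -1.68 ± 0.129. Of the 7, 3 did not overlap, among them Adcy8, a calcium-stimulated adenylyl cyclase, with 36, 45.6 and 71.2 CPM against 5.1, 11.3 and 23.7 CPM (1.87 ± 0.145), and Gnas, the stimulatory G-protein alpha subunit, with 747, 972 and 1869 CPM against 122, 367 and 710 CPM (1.48 ± 0.164). Gng4, a gamma subunit, was higher by 1.29 ± 0.165. RGS proteins, which end G-protein signals, were lower in the SCN in 11 of 14 and higher in 3, beside the same 31% and 32.5%. Rgs4 (-2.68 ± 0.182) and Rgs7bp, an anchor of the RGS7 family (-3.23 ± 0.171), were the largest beside Rgs9, and Rgs2 differed by -1.52 ± 0.112. Those higher in the SCN were Rgs3 (0.67 ± 0.12), Rgs19 (0.36 ± 0.0775) and Rgs10 (0.32 ± 0.129), of which Rgs10 was not called within the upper range of mouse numbers (0.23, adjusted p = 0.182).

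Transmitter genes marked a further contrast. Slc17a6 (VGLUT2), the vesicular glutamate transporter of hypothalamic and other subcortical neurons, was at 54.7, 145 and 253 CPM in the SCN and at 0.17, 10.4 and 26.7 CPM in the NAc (3.81 ± 0.305, adjusted p = 1.06e-15), 14.1-fold higher without overlap. The GABA synthesis genes Gad1 (219, 363 and 690 CPM against 343, 545 and 742 CPM; -0.41 ± 0.0886) and Gad2 (223, 441 and 959 CPM against 466, 827 and 1147 CPM; -0.76 ± 0.121) were lower in the SCN and overlapped. For Slc32a1, the vesicular GABA transporter, the difference was -0.22 ± 0.0803 (adjusted p = 0.011), under the fold of a call. Slc17a7 (VGLUT1), the transporter of cortical neurons, has a row only for the NAc and PFC, and was at 11.6, 165 and 856 CPM in the NAc.

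Among 11 tested GABA-A subunits, 7 were lower in the SCN and 2 higher, against 31% and 32.5% of all genes. Gabra4, a subunit of extrasynaptic receptors, was at 23, 38.1 and 113 CPM in the SCN and at 258, 390 and 697 CPM in the NAc (-3.22 ± 0.16), and Gabra2 (-1.24 ± 0.0839) was lower too, while Gabrg1 (0.94 ± 0.0846) and Gabra3 (0.71 ± 0.124) were higher. In the SCN table alone, Gabrq and Gabre, subunits with limited expression outside the hypothalamus and brainstem, had medians of 77.7 CPM (49.5 to 128) and 30.6 CPM (12.7 to 82.2). Gabrd, with a row only for the NAc and PFC, had 91.7 CPM (55.3 to 135) in the NAc. Of 15 ionotropic glutamate receptor subunits, 5 were higher, near the 32.5% of all genes, and 8 lower, against 31%. The NMDA receptor subunit gene Grin2a was at 14.5, 27.8 and 110 CPM in the SCN and at 158, 251 and 400 CPM in the NAc (-2.92 ± 0.186), and Grin2b (-2.05 ± 0.143) and the AMPA receptor subunit gene Gria3 (-2.14 ± 0.128) were lower as well. Grin2d was at 13.4, 24.7 and 51.5 CPM in the SCN and at 1.48, 5.53 and 13.1 CPM in the NAc (1.90 ± 0.202), and the kainate receptor gene Grik1 at 28.4, 35 and 51.6 CPM and at 3, 9.12 and 15.8 CPM (2.07 ± 0.145). All 5 were without overlap, in contrast to Grin3a (0.92 ± 0.186).

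Potassium channel genes, most but not all of them voltage-gated, were lower in the SCN in 20 of 25 and higher in 4 (median -1.33). Over all genes these shares were 31% and 32.5%. Kcnq5, an M-current channel, was at 8.31, 14.4 and 61.1 CPM in the SCN and at 136, 187 and 251 CPM in the NAc (-3.42 ± 0.161), Kcnab1, a beta subunit, differed by -3.41 ± 0.173, and Kcna4, an A-type channel, by -3.12 ± 0.154. Kcnc2 (Kv3.2), a fast delayed rectifier, was higher in the SCN with 54, 82.1 and 108 CPM against 5.61, 29.1 and 65.6 CPM (1.27 ± 0.203), as were Kcnip1 (0.97 ± 0.213) and Kcnj9 (0.86 ± 0.166), and all 3 overlapped. Of 26 sodium, calcium and HCN channel genes, 18 were lower (31% of all genes) and 6 higher (32.5% of all genes). Scn9a (Nav1.7) was at 60.9, 91.4 and 241 CPM in the SCN and at 3.42, 8.44 and 13.7 CPM in the NAc (3.49 ± 0.131, adjusted p = 1.49e-27), 11.2-fold higher without overlap. Cacna1g, a T-type calcium channel (1.86 ± 0.244), and Hcn3, a pacemaker channel (1.48 ± 0.133), were higher in all 19 mice. Cacng3 (-2.57 ± 0.179), Cacnb4 (-2.42 ± 0.0972) and Cacna2d3 (-2.39 ± 0.0995), auxiliary subunits of AMPA receptors or calcium channels, were lower without overlap.

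Genes of peptide secretion were higher in the SCN in 10 of 16, against 32.5% of all genes, and lower in 2, against 31% (median 0.66). Resp18, a protein of dense-core granules, was at 123, 184 and 209 CPM in the SCN and at 5.31, 14.8 and 29.1 CPM in the NAc (3.48 ± 0.172, adjusted p = 2.65e-23). Scg2, secretogranin II, was at 690, 1354 and 2163 CPM and at 257, 505 and 636 CPM (1.55 ± 0.11), and neither gene overlapped. The prohormone convertase gene Pcsk1 (1.59 ± 0.134), the exocytosis gene Cadps2 (2.02 ± 0.259), Chga (1.21 ± 0.197) and Pcsk1n (0.61 ± 0.112) were higher with overlap. Pcsk2, the convertase that completes enkephalin, was lower (-0.53 ± 0.0853), as was Sv2c, a vesicle protein of the basal ganglia (-2.46 ± 0.219).

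Imprinted genes, expressed from 1 parental allele, were higher in the SCN in 16 of 23 tested (all genes, 32.5%) and lower in 2 (all genes, 31%), with a median of 0.91. Among them was Nnat, neuronatin. Dlk1, a Notch-like membrane protein, was at 130, 337 and 896 CPM in the SCN and at 15.2, 48.2 and 99.6 CPM in the NAc (2.81 ± 0.213, adjusted p = 1.89e-16), and Nap1l5 at 1129, 1499 and 1808 CPM and at 183, 284 and 417 CPM (2.42 ± 0.0969). These 3 did not overlap, and the lowest SCN library in each was SCN J1199. Magel2, which is linked to Prader-Willi and Schaaf-Yang syndromes, has a row in the SCN table alone with a median of 43 CPM (33.6 to 76.9), as has Asb4 with 23.2 CPM (15.8 to 102). Peg10 was higher by 0.81 ± 0.174 and not called within the lower range of mouse numbers (0.51, adjusted p = 0.0868). The 2 lower genes were Mest (-0.46 ± 0.0914) and Ube3a, a ubiquitin ligase (-0.39 ± 0.0699), whose value turned to 0.011 with an exon length offset.

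**Figure D5:**
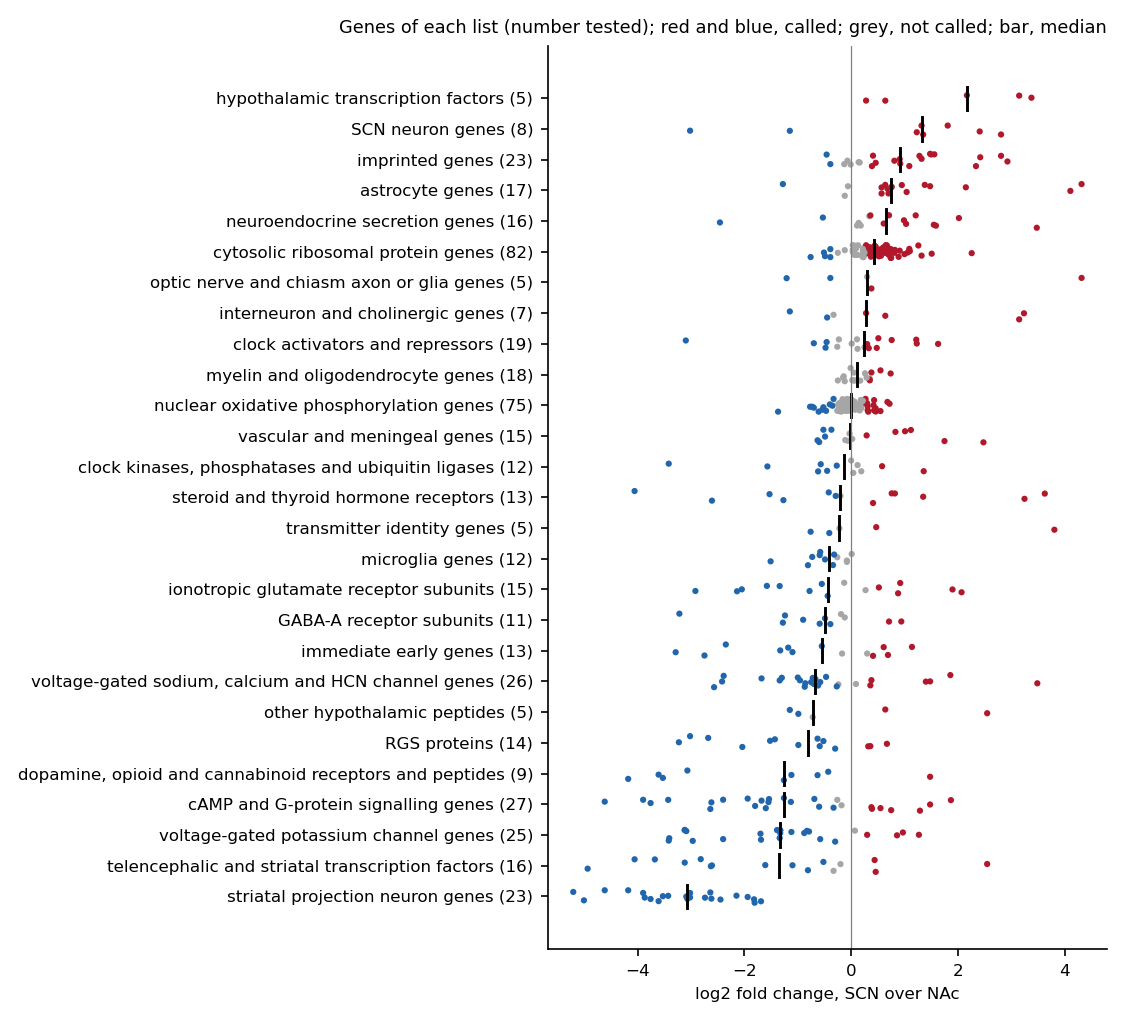
Log2 fold change of SCN over NAc (horizontal axis) for each tested gene of the lists with at least 5 tested genes, with the number tested in brackets. Red and blue points are genes called higher and lower in the SCN, gray points are not called, and black bars are medians. The potassium channel list, labeled voltage-gated, also holds other potassium channels. Striatal projection neuron genes lie lowest with a median of -3.07, and most other lists hold genes of both directions.

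Astrocyte genes were higher in the SCN in 14 of 17 tested and lower in 1, against 32.5% and 31% of all genes, with a median of 0.75. Gfap (ENSMUSG00000020932; chromosome 11, 102887336 to 102900912), the intermediate filament of astrocytes, was at 124, 326 and 1351 CPM in the SCN and at 9.29, 22.5 and 43.7 CPM in the NAc, 19.9-fold higher without overlap (4.32 ± 0.242, adjusted p = 3.21e-21). That was the largest difference of the genes at least 4-fold higher in the SCN without overlap. Itih3, an inhibitor heavy chain of the matrix, was at 239, 321 and 423 CPM and at 3.86, 16 and 57.1 CPM (4.11 ± 0.243), and Gjb6, a connexin of astrocytes, differed by 2.15 ± 0.135. Aqp4, the astrocyte water channel, was higher by 0.57 ± 0.0916 with overlap. Slc1a2 (GLT-1), the main glutamate transporter of the forebrain, was the 1 gene lower in the SCN, at 1356, 2408 and 3031 CPM against 3455, 5498 and 6695 CPM (-1.28 ± 0.0833), without overlap. The sum of the 17 genes was 6156 to 9728 CPM in the SCN (median 8127) and 6384 to 11009 CPM in the NAc (median 9161). The sums overlapped, and their median was lower in the SCN although most single genes were higher there. Agt, angiotensinogen, which astrocytes of the hypothalamus make, had the highest median of the genes of the SCN table alone.

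Genes of other cell types of the punches also moved with region, and their part in the differences was not tested. Of 18 myelin and oligodendrocyte genes, 5 were higher in the SCN, a smaller share than the 32.5% of all genes, and 13 were not called (median 0.11). Their sum ranged from 1130 to 7252 CPM in the SCN and from 1766 to 4183 CPM in the NAc. Olig1 (0.74 ± 0.107) and Olig2 (0.55 ± 0.111), factors of the oligodendrocyte lineage, were higher, and Mobp was at 0.35 ± 0.188 (adjusted p = 0.0838). Mbp, a myelin protein, was called at 0.38 ± 0.152 (adjusted p = 0.023), but not with the mouse as a block (0.25, adjusted p = 0.217), and with this block 2 of the 18 genes were called. Of 12 microglia genes, 8 were lower in the SCN, against 31% of all genes, and 4 were not called. P2ry12, the purinergic receptor of resting microglia, was at 11.9, 22.9 and 35.4 CPM in the SCN and at 39.9, 63.2 and 82.5 CPM in the NAc (-1.51 ± 0.1, adjusted p = 1.78e-18), and Cx3cr1 (-0.81 ± 0.0686) was lower too. Their sum was 280 to 599 CPM in the SCN and 532 to 724 CPM in the NAc.

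Among 15 vascular and meningeal genes, 6 were higher in the SCN and 5 lower, shares near the 32.5% and 31% of all genes. The fibroblast collagens Col1a1 (2.48 ± 0.391) and Col1a2 (1.75 ± 0.233) were higher, as was Ptgds, a prostaglandin synthase of the meninges, at 85.1, 168 and 1514 CPM against 42.3, 94.9 and 335 CPM (1.12 ± 0.267). Ptgds was highest in SCN J1199, and its value was 0.62 without SCN J1199 and SCN J1140. The endothelial genes Flt1 (-0.60 ± 0.129) and Slco1a4 (-0.63 ± 0.0761) and the pericyte gene Rgs5 (-0.52 ± 0.0693) were lower, and Cldn5, of endothelial tight junctions, was at 0.02 ± 0.0806 (adjusted p = 0.854). Of 18 genes of ependyma and tanycytes, which line the ventricles, 12 have a row in the SCN table alone, among them Ccdc153 with a median of 35.7 CPM (5.63 to 81.7) and Rsph1 with 21.4 CPM (6.83 to 34). Another, Crym, has a row only for the NAc and PFC, with a median of 276 CPM (133 to 372) in the NAc, and 2 were not analysed here. The sum of the 3 tested was 46.8 to 203 CPM in the SCN and 136 to 267 CPM in the NAc. Of them, 1 was higher in the SCN (Vim, 1.25 ± 0.132) and 2 were lower, among them Dio2, the enzyme that activates thyroid hormone. Dio2 was at 1.02, 3.72 and 40.5 CPM in the SCN and at 63, 129 and 215 CPM in the NAc (-4.03 ± 0.319), without overlap. The 1 tested choroid plexus gene, Clic6, was higher in the SCN (0.71 ± 0.12).

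Of 16 interneuron and cholinergic genes listed, 7 were tested. Of these, 4 were higher in the SCN (32.5% over all genes) and 2 lower (31% over all genes), or 1 with the mouse as a block. Pvalb, Npy, Slc5a7 and Lhx6 have a row only for the NAc and PFC, Th has a row in the SCN table alone, and 4 were not analysed here. The cholinergic genes Chat, Slc18a3 and Slc5a7 were therefore not tested. Calb2, calretinin, was at 123, 234 and 322 CPM in the SCN and at 4.25, 19.7 and 79.1 CPM in the NAc (3.24 ± 0.296, adjusted p = 8.82e-14), without overlap. Calb1, calbindin, was called at -0.45 ± 0.203 (adjusted p = 0.0405) but not with the mouse as a block (-0.14, adjusted p = 0.528). The 3 tested genes of cortical glutamatergic neurons were not called in edgeR's test or by DESeq2, with 0 at an unadjusted p under 0.05, and 8 of the 13 listed have a row only for the NAc and PFC, with Neurod2 at 0 to 31.3 CPM in the NAc. Of 5 axon and glia genes of the optic nerve and chiasm, 2 were higher in the SCN and 2 lower, against 32.5% and 31% of all genes, or 1 and 1 with the mouse as a block. The neurofilament gene Nefm was lower in the SCN (-1.21 ± 0.265), Nefl was called at -0.39 ± 0.171 (adjusted p = 0.0345) but not with the mouse as a block (-0.35, adjusted p = 0.0628), and Nefh was at 0.30 ± 0.316 (adjusted p = 0.387).

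Of 82 cytosolic ribosomal protein genes, 54 were higher in the SCN and 5 lower, against 32.5% and 31% of all genes, with a median of 0.43. Rpl17 was at 133, 223 and 298 CPM in the SCN and at 33.5, 69.6 and 130 CPM in the NAc (1.51 ± 0.118), Rps4l differed by 2.26 ± 0.109 and Rps12 by 1.32 ± 0.132, while Rplp1 (-0.49 ± 0.12), Rpl12 (-0.51 ± 0.106) and Rps3a3 (-0.76 ± 0.137) were lower. Ribosomal protein genes have many near-identical copies that can share reads, so single values such as those of Rps4l and Rps3a3 are uncertain. The 75 nuclear genes of oxidative phosphorylation had a median of 0.00, with 16 higher, 11 lower and 48 not called, and so held a smaller share of called genes than the 63.6% over all genes. Atp5h (0.72 ± 0.0763), Atp5g2 (0.68 ± 0.0876) and Ndufs6 (0.55 ± 0.101) were highest, and Cox6c2 (-1.37 ± 0.211), Ndufa12 (-0.77 ± 0.105) and Atp5mpl (-0.73 ± 0.102) lowest. The split of this family moved with the scaling, to 26 higher and 8 lower by total counts alone.

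Of the 85 genes at least 4-fold higher in the SCN without overlap, 17 belong to the lists above, and of the 208 lower, 48. Among the other genes with the largest differences, AW551984 was at 238, 280 and 367 CPM in the SCN and at 2.59, 18.5 and 44.3 CPM in the NAc (3.87 ± 0.201). Cd24a, a surface glycoprotein of immature neurons and ependyma, differed by 3.80 ± 0.172, Gpr165 by 3.43 ± 0.172, Mrap2, a partner of melanocortin receptors, by 3.32 ± 0.119, and Ucp2, a mitochondrial carrier, by 3.05 ± 0.119. Sparc, a matrix protein of glia and vessels, was at 694, 1102 and 1714 CPM in the SCN and at 55.2, 108 and 247 CPM in the NAc (3.30 ± 0.144; 9.83-fold). All were higher in each of the 19 mice.

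In the other direction, Gm14586 stood out for its narrow range in the SCN, at 2.41, 5.06 and 12.8 CPM against 64, 102 and 190 CPM in the NAc (-4.24 ± 0.152; -4.24 without the 2 SCN libraries). Arhgap10, a regulator of small GTPases, differed by -4.29 ± 0.331, Ptk2b, a calcium-activated tyrosine kinase, by -4.19 ± 0.393, Lmo7 by -4.16 ± 0.328, Mctp1, a calcium sensor of the endoplasmic reticulum, by -4.06 ± 0.208, Strip2 by -3.99 ± 0.247, and Ddn, dendrin of the postsynapse, by -3.95 ± 0.346. Without SCN J1199 and SCN J1140 these 6 values were -5.04, -5.29, -5.02, -4.48, -4.61 and -4.72. The change was largest for Ptk2b, whose level was 234 CPM in SCN J1199, 73.6 CPM in the J1140 punch of the SCN and 10.5 CPM in the SCN median.

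Of the genes with a row in 1 table alone, those highest in the SCN table after Agt, Avp and Trh were Irs4, an insulin receptor substrate of the hypothalamus, with a median of 117 CPM (69.1 to 343), Gpx3 with 108 CPM (76.8 to 202), Rgs16, Arhgap36 with 95.6 CPM (71.1 to 131) and Igsf1, a regulator of thyrotropin release, with 92.8 CPM (67.4 to 130). In the NAc, after Scn4b they were Crym, a thyroid hormone-binding protein, with 276 CPM (133 to 372), Adora2a, Ankrd63 with 171 CPM (101 to 230), Slc17a7, Kcnj4, an inward rectifier, with 147 CPM (121 to 212), Ankrd33b with 123 CPM (87.9 to 144), Chrm1, the M1 muscarinic receptor, with 120 CPM (82 to 147), Foxp2 with 109 CPM (56.6 to 191) and Itpka with 108 CPM (61.5 to 166). These are levels without a test.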

How the data were processed

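RNA of brain punches from individual mice was sequenced as paired-end libraries made with a low-input kit. The authors checked reads with FastQC (version 0.11.7), aligned them to GRCm38 with HISAT2 and counted reads per gene with HTSeq in union mode. They removed genes of the Y chromosome, filtered low genes, and deposited raw counts per gene and library. The methods of the study name a filter for each region, while the deposited counts hold 12047 genes for the SCN and 11569 for the NAc with PFC. These numbers differ from those the study gives after its filter. The annotation release that the authors used is not given in the sources used here. The labels give neither CRD nor sex.

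The tables were joined on Ensembl gene IDs without mitochondrial-chromosome genes, Gm42418, Gm26917 and Gm23935, which left 11109 genes. Counts were scaled by TMM and fitted with region as the factor in edgeR 4.0.16 (R 4.3.3) by the quasi-likelihood test, two-sided, with Benjamini-Hochberg adjustment, an adjusted p threshold of 0.05 and a fold of at least 1.2. The filter of edgeR removed 0 genes. Tables and figures were made with Python 3.11.15, numpy 2.4.6 and pandas 2.3.3. Total counts as deposited were 16496666 to 35389742 in the SCN and 28879724 to 60009482 in the NAc, so single libraries of the SCN carry more counting error. Gene positions are of GENCODE M21, which held 11087 of the genes, and promoter windows of 250 bases are of RefSeq. The fit was tested on simulated data.

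Members and gene lists were chosen with earlier results of these data known. Genes named are the core genes of the lists, up to 3 called genes at either end of each list, the 15 genes with the largest and the 15 with the smallest difference among those 4-fold apart without overlap, and the 10 highest of each table alone. Some genes that this rule names are not reported here. Bhlhe41, Hba-a1, Hba-a2, Lars2, Rn7s1, genes named without a value to complete a list (Nr1d2, Pnoc, Pomc, Lhx6, Crh, Npy, Crhbp, Cartpt, Pvalb, Slc5a7, Th, Chat and Slc18a3) and genes named for their E-box were chosen after their values were seen. No 2 libraries agreed within sampling noise. Where the labels give the same mouse number in both regions, the libraries share a mouse. Over the 19 pairs the correlation of deviations from the region means ran from -0.379 to 0.514 (median 0.00219), with 3 over 0.1. Alternatives were another tool (DESeq2 1.42.0), scalings, filters, the mouse as a block, mouse-number ranges, exon length as an offset, and libraries left out. The last of them, without SCN J1140 and both libraries of mouse J1199, was added after the data were seen.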

Additional observations from a re-analysis of the deposited data

How the results depend on the processing

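Under the 19 alternatives, 5677 to 7300 genes were called and 192 to 393 were 4-fold apart without overlap, and no gene called in both changed direction. Tested against 1.2-fold itself (glmTreat), 5677 genes were called. Tested against 4-fold itself, 192 genes were 4-fold apart without overlap in place of 293. In the higher direction they were 50 in place of 85. Where every library had to hold at least 50 counts, 9555 genes were tested and 51 of those 85 remained. DESeq2 called 7094 genes. Of the 7063 called genes, 6134 were also called with an exon length offset, 6220 by total counts alone and 6357 with upper-quartile factors. Of the 293 genes 4-fold apart without overlap, 253, 250 and 257 remained so in these fits. With the mouse number as a replicate block, fitted over 19 paired mice, calls numbered 7015, of which 6847 were shared, and 308 genes were 4-fold apart without overlap. In this fit Mbp, Calb1 and Nefl were no longer called, and no other named gene lost its call. It also leaves out the NAc libraries of the 7 mice without an SCN library. Without the block, the 19 paired mice gave 7022 called genes. Without SCN J1140 and both libraries of mouse J1199, chosen after the data were seen, 7140 genes were called and 347 were 4-fold apart. An exon length offset turned Clock from -0.26 to 0.13, Cldn5 from 0.02 to -0.22 and Ube3a from -0.39 to 0.011. Cldn5 was -0.02 without SCN J1140 and both libraries of mouse J1199, and Per3, at 0.11 over all mice, was -0.027 over the lower mouse numbers alone. Of these, only Ube3a was called, and the cause was not tested. Of 181 named genes, 15 called ones lost their call under at least 1 alternative. They were Cry1, Dbp, Cnr1, Peg10, Mbp, Sst, Calb1, Ikzf2, Cck, Nts, Rgs10, Rgs19, Ube3a, Flt1 and Nefl. SCN libraries were shallower than NAc libraries, and with libraries thinned to 6566651 counts 7090 genes were called. P-values of the main fit rest on the spread between libraries within each region, from mice of mixed conditions. That fit took the libraries of the same mouse as separate.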

Other observations

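The hemoglobin genes, which mark red blood cells, were also higher in the SCN and were named after their values were seen. Hba-a1 was at 44.8, 166 and 442 CPM in the SCN and at 8.58, 29.1 and 79.7 CPM in the NAc (2.68, adjusted p = 6.74e-14), and Hba-a2 at 22.2, 128 and 246 CPM and at 3.78, 18.6 and 76.8 CPM (2.55, adjusted p = 3e-13). Hba-a1 was higher in the SCN of all 19 mice with both regions and Hba-a2 of 18. The 2 genes are near-identical copies that can share reads.

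Lars2, which shares reads with ribosomal RNA-like sequence, was at 1519, 5740 and 11280 CPM in the SCN and at 339, 1042 and 6056 CPM in the NAc (2.13, adjusted p = 4.76e-10). Rn7s1, a copy of the signal recognition particle RNA, was at 422, 5418 and 19335 CPM and at 52.3, 741 and 2116 CPM (2.53, adjusted p = 3.6e-09). Both were named after their values were seen, and both ranges overlapped between the regions.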
